A study of Mus musculus with 9 samples.

Results

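The genes described are the xenobiotic metabolism enzyme families of mouse intestinal crypt epithelium: the cytochrome P450 families Cyp1 to Cyp4, the carboxylesterases Ces1 and Ces2, the glutathione S-transferases, the UDP-glucuronosyltransferases Ugt1 and Ugt2, and the sulfotransferases. They were chosen by symbol and by level. Of 24930 genes in the deposited table, 163 carried a symbol of these families, and the 75 members were those with at least 1 FPKM, a level per length of transcript and per depth of library, in at least 3 of the 9 libraries. Of the other 88 rows, 22 were listed at 0 in every library and 6 reached 1 FPKM in at least 1 library. The members just inside the level rule were Cyp2r1, whose highest 3 libraries were at 1.02 FPKM or more, and the pseudogene Cyp4f41-ps, at 1.08. Just outside were Cyp4x1os at 0.971 and Cyp2w1 at 0.898. Of the 75 members, 57 were at or above 1 FPKM in all 9 libraries, and 0 reached that level only in controls or only in mutants.

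The study compared control crypt epithelium with epithelium in which 1 allele of β-catenin had been switched to a gain-of-function form, 8, 9 and 10 days after induction. Control, set A and set B each had 3 libraries, 1 for each day. Set A is titled Bcathet and set B Cdx2het_Bcathet, but the names of the libraries place CDX2HET beside EXON3 in set A and give EXON3 alone in set B, so the labels conflict on which set carries the second altered allele, in the homeobox gene Cdx2. Cdx2 itself was at 108 to 139 FPKM in the controls, while set A was at 126 to 144 and set B at 178 to 196, so that it was below the controls in neither set. The labels give no inducing agent, Cre driver, strain or age, and do not say whether each library is a separate animal, so a test measures the spread between libraries, which may be technical. Values per gene cannot tell the altered from the normal β-catenin transcript.

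In xenobiotic metabolism, phase 1 enzymes such as P450s and carboxylesterases oxidise or hydrolyse a foreign or internal compound. Conjugating enzymes then attach glutathione, glucuronic acid or sulfate, and transporters export the product. In the small intestine most of these enzymes are known from absorptive enterocytes, and the nuclear receptors PXR and CAR, the dioxin receptor AHR and the oxidative stress factor NRF2 are known to switch on many of their genes.

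The set B library of day 9 stood apart from the other 8. Its Xist level was 0.1 FPKM against 27.0 to 39.4 in the others, and its summed Y-linked level was 41.7 FPKM against at most 0.047, so it alone showed a male pattern. Of the 75 members, 46 (61.3%) had their highest value in it, compared with 12.7% of the 12097 genes tested. Counts, and the values of the members whose differences rest on this library, are therefore given with and without it. Summed levels of 5 epithelium markers ranged from 4108 to 4744 FPKM over the 9 libraries, and 1 FPKM corresponded to about 16.7 to 19.1 fragments per kilobase, estimated from the spacing of low values in 2438 genes with a single transcript. A sum of all FPKM ranged from 624923 to 755802 per library.

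Differences were fitted with limma on log2(FPKM + 1) over all 12097 genes at or above the level rule and adjusted by the Benjamini-Hochberg method. This scale understates the change of low genes. With all 9 libraries and both mutant sets set against control, 1 of 75 members (1.33%) passed an adjusted p of 0.05, beside 1.16% of all genes. That gene was Gsta3, which was higher. Without set B day 9, 9 of 75 members (12%) passed, 2 higher and 7 lower, against 8.22% of all genes, 4.6% higher and 3.61% lower. The share of members called lower, 9.33%, was above that background, and the share called higher, 2.67%, was below it. With all libraries 0 members were called lower, against 0.645% of all genes. Set B day 9 was singled out partly by the members' own high values. Leaving it out lowers the members as a group more than other genes, here and in the counts below. The shares, calls and adjusted p-values without it, here and for the single genes below, are therefore a description and not a test. The median log2 difference of the members was −0.21 with all libraries and −0.37 without set B day 9, whereas that of all genes tested was 0.00 in both. A positive difference was seen for 18 of 75 members (24%) and for 49.7% of all genes; without set B day 9 it was 15 (20%), against 50.1%. At an unadjusted p under 0.05 there were 7 members (9.33%) with all libraries, against 21% of all genes, and 37 (49.3%) without set B day 9, against 27.4%.

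Separation of the groups was counted as well. With all libraries, 1 member (1.33%) lay above the controls in all 6 mutant libraries, Gsta3, against 5.19% of all genes, and 1 lay below them, Gstz1, against 7.37%. In the 5 mutant libraries other than set B day 9, 2 members (2.67%, against 9.9%) lay above and 16 (21.3%, against 10.3%) lay below every control.

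**Figure D1:**
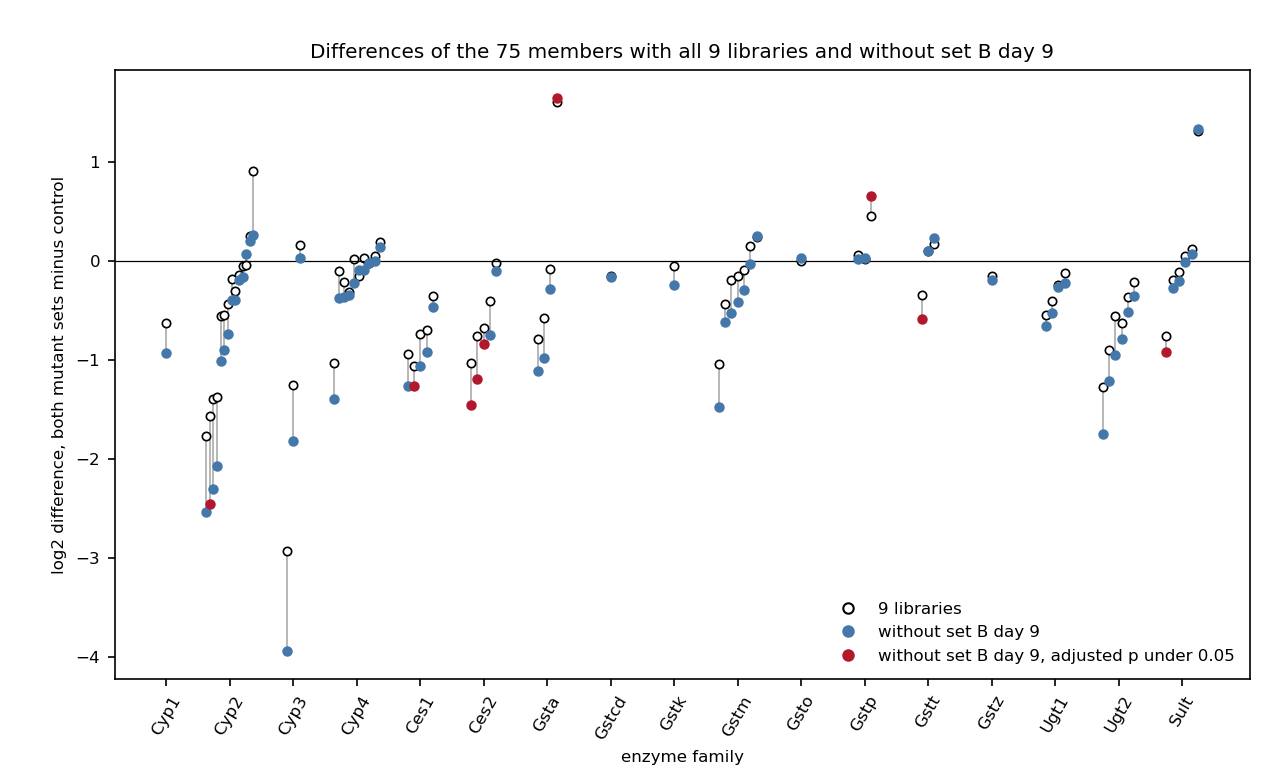
Log2 differences (FPKM + 1) of both mutant sets minus control for the 75 members, in columns by enzyme family; open circles are fits with all 9 libraries, filled circles fits without set B day 9, and red marks an adjusted p under 0.05 in the latter. The lowest point, Cyp3a11, is at −2.93 with all libraries and −3.94 without set B day 9, and the highest, Gsta3, at 1.60 and 1.64.

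Promoters were available in the RefSeq tables (build GRCm38.p6) for 65 of the 75 members. The 250 bases before the start are printed for the 2 members that passed as higher in either fit, Gsta3 and Gstp3, and for 2 P450s with low values in both day-10 mutant libraries, Cyp3a11 and Cyp2c29. Capitals mark a match to the antioxidant response element TGACNNNGC, to which NRF2 is known to bind, or to the core dioxin response element GCGTG, to which AHR is known to bind, each searched on both strands. All 4 read 5′ to 3′ on the gene's strand. Gsta3 lies at chr1:21240335-21240584 on the plus strand, Gstp3 at chr19:4059448-4059697 on the minus strand, Cyp3a11 at chr5:145879855-145880104 on the minus strand and Cyp2c29 at chr19:39286835-39287084 on the plus strand.
Gsta3: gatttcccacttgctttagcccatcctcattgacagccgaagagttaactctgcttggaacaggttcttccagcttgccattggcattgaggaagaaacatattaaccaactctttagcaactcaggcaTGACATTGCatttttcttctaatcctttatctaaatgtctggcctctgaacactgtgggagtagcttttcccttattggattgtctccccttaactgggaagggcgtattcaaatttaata
Gstp3: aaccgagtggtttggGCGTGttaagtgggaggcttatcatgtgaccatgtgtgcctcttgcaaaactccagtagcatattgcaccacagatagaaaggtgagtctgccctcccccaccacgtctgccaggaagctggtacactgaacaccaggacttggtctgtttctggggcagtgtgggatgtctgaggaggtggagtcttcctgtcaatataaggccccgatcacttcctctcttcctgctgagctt
Cyp3a11: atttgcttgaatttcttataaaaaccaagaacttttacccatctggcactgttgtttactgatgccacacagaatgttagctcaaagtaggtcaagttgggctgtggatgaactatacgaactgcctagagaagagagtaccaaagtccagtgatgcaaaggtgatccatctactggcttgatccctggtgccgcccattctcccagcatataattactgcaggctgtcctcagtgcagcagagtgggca
Cyp2c29: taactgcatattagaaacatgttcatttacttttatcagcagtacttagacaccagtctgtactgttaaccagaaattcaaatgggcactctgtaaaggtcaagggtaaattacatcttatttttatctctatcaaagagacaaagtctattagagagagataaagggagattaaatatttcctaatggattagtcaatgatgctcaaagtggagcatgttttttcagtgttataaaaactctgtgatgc
The Gsta3 window held TGACATTGC from 121 to 113 bases before the start, and the Gstp3 window held GCGTG from 235 to 231 bases before it. Neither motif's letters were in the Cyp3a11 or Cyp2c29 window. Over the members, TGACNNNGC was in 4 of 65 windows (6.15%), those of Gsta3, Gstm5, Gstm7 and Cyp4f14, against 11.5% of 27025 promoters of the same length. GCGTG was in 16 of 65 (24.6%), against 30.9%. Letter matches of this kind are a description and not evidence of binding.

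Among the phase 1 enzymes, Cyp3a11, the main drug-oxidising P450 of mouse liver and intestine and a known target of PXR, had the largest fitted difference of the 75. Its levels on days 8, 9 and 10 were 164, 58.9 and 92.9 FPKM in the controls, 18.5, 39.4 and 0.953 in the set A libraries and 5.13, 230 and 1.01 in those of set B. All 3 set A libraries and the set B libraries of days 8 and 10 were below every control, while set B day 9 was above every control. The mean was 105 ± 53.7 FPKM in control (SD, n = 3), while set A had 19.6 ± 19.2 and set B 78.8 ± 131. The log2 difference of both sets from control was −2.93 ± 1.53 (SE), with a limma adjusted p of 0.312. Without set B day 9 it was −3.94 ± 1.00, with an adjusted p of 0.0597, and did not pass either. Its closest copy, Cyp3a41a, 94.7% identical, was at most at 0.133 FPKM. Fewer cells of a type and less RNA per cell cannot be told apart in these bulk libraries, here or for the genes that follow.

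**Figure D2:**
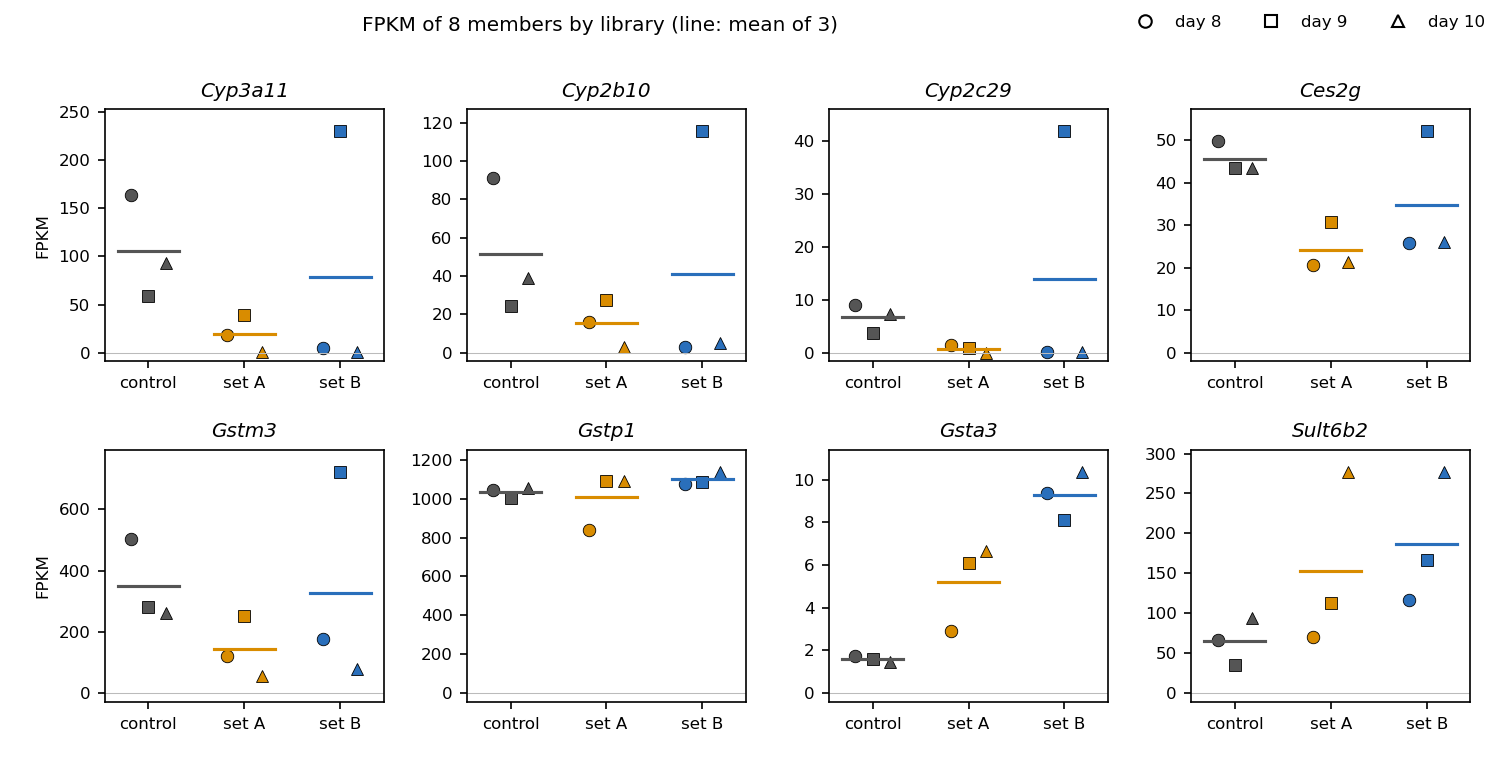
FPKM of 8 members in each of the 9 libraries, by group, with the day as the symbol and the mean of 3 libraries as a line; each panel has its own linear axis. Cyp3a11, Cyp2b10, Cyp2c29 and Gstm3 have their highest point in set B day 9 and low points in both day-10 mutants, whereas Gsta3 lies between 2.91 and 10.4 in the mutants and between 1.44 and 1.72 in the controls.

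Cyp3a25, a P450 encoded beside Cyp3a11, was at 70.5, 25.2 and 27.8 FPKM in control, while set A had 14.2, 21.0 and 5.03 and set B 10.4, 94.1 and 6.21, on days 8, 9 and 10. Its mutant libraries other than set B day 9 were again all below the controls. Without that library the difference was −1.82 ± 0.51 with an adjusted p of 0.0762 from limma, and with it −1.25 ± 0.83 with 0.431. Cyp3a13, the third Cyp3 member, ranged from 49.7 to 130 FPKM in control and from 66.1 to 143 in the mutants, so that its groups overlapped, with a difference of 0.16 ± 0.32.

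In the Cyp2 family, Cyp2c29, one of the P450s that oxidise fatty acids and drugs, was at 9.06, 3.65 and 7.27 FPKM in the controls, 1.36, 0.858 and 0 in the set A libraries and 0.131, 41.8 and 0.0347 in those of set B. Leaving aside set B day 9, every mutant library was below every control, and the remaining 5 mutant libraries had a mean of 0.476 ± 0.605 FPKM against 6.66 ± 2.75 in control. In the fit without set B day 9, a description only, the log2 difference of Cyp2c29 was −2.45 ± 0.34, with a limma adjusted p of 0.0140. With all 9 libraries the difference was −1.57 ± 1.13 and the adjusted p was 0.467, so it did not pass.

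The 3 most abundant Cyp2 members were Cyp2d26, Cyp2c65 and Cyp2s1. Cyp2d26 was at 63.1 to 120 FPKM in control, 25.3 to 90.8 in the mutants without set B day 9, and 211 in set B day 9. Cyp2c65 was at 57.9 to 106 in control, 23.3 to 68.6 in the same 5 mutant libraries and 160 in set B day 9. Both thus overlapped the controls through set A day 9 and exceeded them in set B day 9. Cyp2s1, a P450 known from epithelia outside the liver, had a narrow range, 37.0 to 46.3 FPKM in control and 30.9 to 45.9 in the mutants, with an overlap and a difference of −0.15 ± 0.13.

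Cyp2b10, a classical target of CAR, and Cyp2e1, the ethanol-oxidising P450, were singled out after their values were seen. Cyp2b10 was at 91.2, 24.1 and 38.9 FPKM in control, while set A had 16, 27.6 and 3.16 and set B 2.88, 115 and 4.92. Set A day 9 lay within the control range, the other set A libraries and set B days 8 and 10 lay below it, and set B day 9 lay above it. Its difference was −1.77 ± 1.13 with an adjusted p of 0.413 by limma, and −2.54 ± 0.70 with 0.0710 without set B day 9. Cyp2e1 differed in pattern, at 0.866, 1.28 and 0.674 FPKM in the controls, 6.66, 2.04 and 0.353 in the set A libraries and 1.13, 23.5 and 0.317 in those of set B. Only set A days 8 and 9 and set B day 9 exceeded the controls, and the 2 day-10 mutants were below them. Hepatocyte markers, a list that holds Cyp2e1, summed to 42.3 FPKM in set B day 9 and to 6.8 to 17.2 in the other libraries. Cyp2e1 itself gave 23.5 of the 42.3 FPKM in set B day 9 and 6.66 of the 17.2 in set A day 8. Of the 11 genes, 2 were listed at 0 throughout, and the part of the list in the result was not tested.

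Cyp1a1, the P450 most responsive to AHR, was the only Cyp1 member. It was at 0.192, 2.41 and 1.36 FPKM in control, while set A had 0.316, 0.452 and 0 and set B 0, 2.55 and 0. It was listed at 0 in 3 of 6 mutant libraries and overlapped the controls, with a difference of −0.63 ± 0.48, and of −0.93 ± 0.33 without set B day 9 (limma adjusted p 0.115).

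The Cyp4 family, whose enzymes oxidise fatty acids and eicosanoids at the end of the chain, had a median log2 difference of −0.06. Its most abundant member, Cyp4f14, ranged from 131 to 253 FPKM in control and from 136 to 234 in the mutants, with a difference of 0.05 ± 0.23. Cyp4f16, at 48.9 to 76.4 in control and 42.4 to 82.4 in the mutants, and Cyp4f40, at 44.0 to 62.1 and 34.7 to 53.6, also overlapped. Cyp4v3, a fatty acid oxidase singled out after its values were seen, was the one Cyp4 member of 10 whose mutant libraries without set B day 9 were all below the controls, at 13.4 to 32.6 FPKM against 33.6 to 82.7.

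The carboxylesterases, which split esters and amides, gave 4 of the 7 lower calls in the fit without set B day 9. With all libraries 0 members were called lower. All 5 Ces1 and all 5 Ces2 members had negative differences in both fits. Their genes stand in 2 runs of adjacent genes on chromosome 8, so they share their neighbourhood and are not independent observations. The transcript of Ces2a is 91.9% identical to Gm7208, that of Ces2b 90.7% to Ces2c and that of Ces2g 86.7% to Gm6831 over most of the transcript, so reads may be split between copies.

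Ces2g was at 49.9, 43.4 and 43.4 FPKM in the controls, 20.6, 30.7 and 21.3 in the set A libraries and 25.9, 52.1 and 26.2 in those of set B. The controls and the mutants did not overlap except for set B day 9, which was above every control. Without that library Ces2g fell by 0.84 ± 0.13 on the log2 scale, to 24.9 ± 4.11 FPKM from 45.6 ± 3.72, with an adjusted p of 0.0149 from limma; with all 9 the difference was −0.68 ± 0.23 and the adjusted p 0.160. Ces2a, a carboxylesterase of lipid and drug ester breakdown, was at 86.7, 53.1 and 52.5 FPKM in control, while set A had 18.9, 34.3 and 16.8 and set B 26.1, 132 and 18.7. It fell by 1.45 ± 0.28 without set B day 9, with a limma adjusted p of 0.0316, and did not pass with all libraries, at −1.03 ± 0.58 and 0.344. Its groups were separate apart from set B day 9, which was the highest of all.

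Ces2b, a less abundant relative, was at 3.22, 3.44 and 1.93 FPKM in the controls, 0.809, 1.28 and 0.645 in the set A libraries and 0.516, 7.92 and 0.386 in those of set B. It fell by 1.20 ± 0.18 without set B day 9, with an adjusted p of 0.0137 by limma, against −0.76 ± 0.56 and 0.477 with all libraries. Ces2e, the most abundant carboxylesterase, was at 190 to 304 FPKM in control and 157 to 300 in the mutants, and Ces2c was at 93.3 to 137 and 51.6 to 264. Both overlapped, with differences of −0.03 ± 0.21 and −0.41 ± 0.48.

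In the Ces1 run, Ces1e was at 24.1, 24.6 and 18.3 FPKM in control, while set A had 10.1, 18.6 and 7.43 and set B 8.69, 16.5 and 4.94. Here set B day 9 was below every control, and set A day 9 alone reached the control range. Ces1e fell by 1.26 ± 0.30 without set B day 9, with an adjusted p of 0.04999 by limma, barely under the threshold; with all 9 it was −1.06 ± 0.36 with 0.160. Ces1f, the most abundant Ces1 member, was at 46.8 to 60.6 FPKM in control and 14.2 to 68.6 in the mutants, and Ces1d was at 2.38 to 4.69 and 0.406 to 6.50. Both overlapped the controls and did not pass in either fit.

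Among the conjugating enzymes, Gsta3, a glutathione transferase of the alpha class, was the member that passed with all libraries. Its levels on days 8, 9 and 10 were 1.72, 1.58 and 1.44 FPKM in the controls, 2.91, 6.08 and 6.69 in the set A libraries and 9.38, 8.11 and 10.4 in those of set B. All 6 mutant libraries were above all 3 controls, including set B day 9. Gsta3 rose by 1.60 ± 0.20 on the log2 scale in both sets together, with a limma adjusted p of 0.0164.

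By set, Gsta3 rose by 1.99 ± 0.23 in set B, to 9.29 ± 1.13 FPKM from 1.58 ± 0.14 in control (SD, n = 3), with a limma adjusted p of 0.0135. In set A, at 5.23 ± 2.03 FPKM, the difference was 1.21 ± 0.23 with an adjusted p of 0.0921 and did not pass. Every set B library was above every set A library, and the difference between the sets was 0.78 ± 0.23, with an adjusted p of 0.9999 and an unadjusted p of 0.0096 from limma. The call for both sets was lost when any 1 of the 3 controls was left out, with limma adjusted p-values of 0.0611, 0.0788 and 0.102, and without the day-10 libraries, at 0.259. The set B call was lost in those settings and without set B day 8 or day 10, and the set A difference passed without set A day 8, at 0.00795 by limma. The difference of both sets itself stayed between 1.43 and 2.03 in all settings. No other gene of the reference shared at least 85% of its bases over at least 50% of the Gsta3 transcript.

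The other alpha class genes were not higher. Gsta1, a highly expressed intestinal transferase, was at 271, 144 and 187 FPKM in control, while set A had 69.3, 155 and 66.4 and set B 85.8, 353 and 91.6. Set A day 9 lay within the control range, and the difference was −0.79 ± 0.50 with all libraries and −1.12 ± 0.33 without set B day 9, with limma adjusted p-values of 0.412 and 0.0845. Its transcript is 99.5% identical to Gm3776, which was at 40.7 to 198 FPKM, so single values of Gsta1 are uncertain; their sum was 249 to 433 FPKM in control and 107 to 551 in the mutants. Gsta4, which conjugates the lipid peroxidation product hydroxynonenal, was at 48.8 to 76.0 FPKM in the controls, 19.6 to 45.4 in the mutants other than set B day 9, and 158 in that library, a difference of −0.98 ± 0.28 without it and of −0.58 ± 0.55 with it, with adjusted p-values of 0.0757 and 0.589 by limma.

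The 7 mu class genes form a single run on chromosome 3. Gstm3, the most abundant, was at 503, 281 and 260 FPKM in control, 122, 252 and 56.7 in the set A libraries and 177, 723 and 78.3 in those of set B. Apart from set B day 9 all mutant libraries were below the controls, but the difference did not pass, at −1.04 ± 0.71 with all libraries and −1.47 ± 0.53 without that library, limma adjusted p 0.444 and 0.129. Gstm2 was separated likewise, at 59.7 to 64.1 FPKM in control and 26.6 to 53.3 in the 5 mutant libraries, while Gstm1 overlapped at 110 to 156 and 53.4 to 132. All 7 mu class genes exceeded every control in set B day 9.

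The pi class held the most abundant member of all. Gstp1 was at 1046, 1002 and 1054 FPKM among controls, 841, 1092 and 1092 in set A, and in set B at 1073, 1088 and 1138. Its groups overlapped, with a difference of 0.02 ± 0.09, and set A day 8 was the lowest library. Gstp2 overlapped also, at 130 to 154 FPKM in control and 111 to 168 in the mutants; its transcript is 98.7% identical to that of Gstp1 over the aligned stretch, so reads may be split between them. Gstp3, the third gene of the run, was at 25.7, 25 and 24 in the controls, 27.2, 33.4 and 46.1 in the set A libraries and 41.9, 19.2 and 49.3 in those of set B. Set B day 9 was below every control and the other mutant libraries were above them. Gstp3 rose by 0.65 ± 0.16 without set B day 9, with an adjusted p of 0.0461 by limma, and was 0.45 ± 0.29 higher with 0.405 with all libraries.

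In the theta class, Gstt1, which conjugates small halogenated compounds, was at 49.0, 40.0 and 40.2 FPKM in the controls, 29.3, 36.9 and 28.3 in the set A libraries and 23.0, 70.3 and 27.9 in those of set B. It fell by 0.59 ± 0.12 without set B day 9, with a limma adjusted p of 0.0288. With all libraries the difference was −0.35 ± 0.31 with a limma adjusted p of 0.560, and did not pass. Only set B day 9 was above the controls, and the other 5 mutant libraries were below them. Its neighbours Gstt2 and Gstt3 overlapped the controls, with differences of 0.17 ± 0.16 and 0.10 ± 0.07.

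Of the classes with 1 member, Gsto1, which reduces oxidised vitamin C and arsenic compounds, was the second most abundant member at 527 to 630 FPKM in control and 459 to 679 in the mutants. Gstk1 was at 22.3 to 36.1 and 20.6 to 53.0, and Gstcd at 6.45 to 8.18 and 5.82 to 7.06. All 3 overlapped. Gstz1, an isomerase of tyrosine breakdown, was the only member below the controls in all 6 mutant libraries, at 43.4, 41.1 and 42.4 FPKM in control, while set A had 38.7, 39.7 and 37.6 and set B 36.1, 41.0 and 34.7. The gap was narrow, and the difference of −0.16 ± 0.06 had an adjusted p of 0.210 by limma.

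The glucuronosyltransferases, which attach glucuronic acid to bilirubin, steroids and drugs, all had negative differences, 4 of 4 in Ugt1 and 6 of 6 in Ugt2. In limma 0 of the 10 passed in either fit; at an unadjusted p under 0.05 there were 0 with all libraries, where 21% of all genes were under it, and 6 without set B day 9, where 27.4% were. Ugt1a7c, the most abundant Ugt1 member, was at 104 to 115 FPKM in control and 75.9 to 128 in the mutants, and overlapped. Ugt1a1, the bilirubin-conjugating enzyme, was at 82.8, 55.7 and 64.0 FPKM in the controls, 46.7, 58.4 and 30.8 in the set A libraries and 45.5, 63.1 and 34.8 in those of set B. Day 9 of both sets lay within the control range and days 8 and 10 lay below it, and the difference was −0.55 ± 0.25 with a limma adjusted p of 0.251, and −0.66 ± 0.23 with 0.120 without set B day 9. Ugt1a6a was at 7.81 to 11 FPKM in control and 5.92 to 10.1 in the mutants. Ugt1 transcripts share their 3′ exons, and a stretch of Ugt1a7c was 100% identical to Ugt1a6a, so the split between Ugt1 members is uncertain.

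In Ugt2, the most abundant member, Ugt2b34, was at 150 to 219 FPKM in control, 98.4 to 167 in the mutants other than set B day 9, and 229 in that library. Ugt2b35 was at 22.1 to 28.3 in control and 14.1 to 34.9 in the mutants, and Ugt2a3 at 14.6 to 29.3 and 5.24 to 28.1. All 3 overlapped the controls. Of the 6 Ugt2 members, Ugt2b5 and Ugt2b36, also singled out by their values, were below the controls in every mutant library other than set B day 9, and Ugt2b5 was at 12.8, 9.55 and 8.34 FPKM in control, while set A had 4.01, 6.52 and 0.778 and set B 2.63, 18.7 and 0.971.

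The sulfotransferases went in different directions. Sult1d1, which sulfates catecholamines in mice, was at 51.1, 35.3 and 48.8 FPKM in the controls, 23.0, 31.3 and 18.7 in the set A libraries and 23.1, 44.5 and 21.3 in those of set B. All mutant libraries other than set B day 9 were below every control, and set B day 9 lay inside the control range. Sult1d1 fell by 0.92 ± 0.18 without that library, with an adjusted p of 0.0304 by limma, against −0.76 ± 0.26 and 0.158 with all libraries.

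Sult6b2, a sulfotransferase with no well established substrate, was at 66.5, 35.1 and 94.6 FPKM in control, while set A had 70.7, 113 and 276 and set B 116, 166 and 277. Its level was higher on each later day within each mutant set, and only set A day 8 was within the control range. The difference of 1.31 ± 0.49 had a limma adjusted p of 0.185. Sult2b1, which sulfates cholesterol, and Sult1b1, which sulfates thyroid hormone and phenols, overlapped, at 40.4 to 86.2 FPKM in control and 45.8 to 90.4 in the mutants, and at 35.2 to 57.7 and 32.6 to 58.2.

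Considered by library, the low values were concentrated in days 8 and 10 of both sets. The share of members below all 3 controls was 65.3% in set A day 8, 66.7% in set B day 8, 69.3% in set A day 10 and 70.7% in set B day 10, whereas 30.8% to 33.6% of all tested genes were below in those libraries. In set A day 9 the share was 26.7% against 32.8% of all genes, and in set B day 9 it was 10.7% against 33.2%. In set B day 9, 70.7% of members were above all controls, against 26.6% of all genes. Day 9 thus departed from days 8 and 10 in both sets, but with 1 library a day and set a day cannot be told apart from a library.

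**Figure D3:**
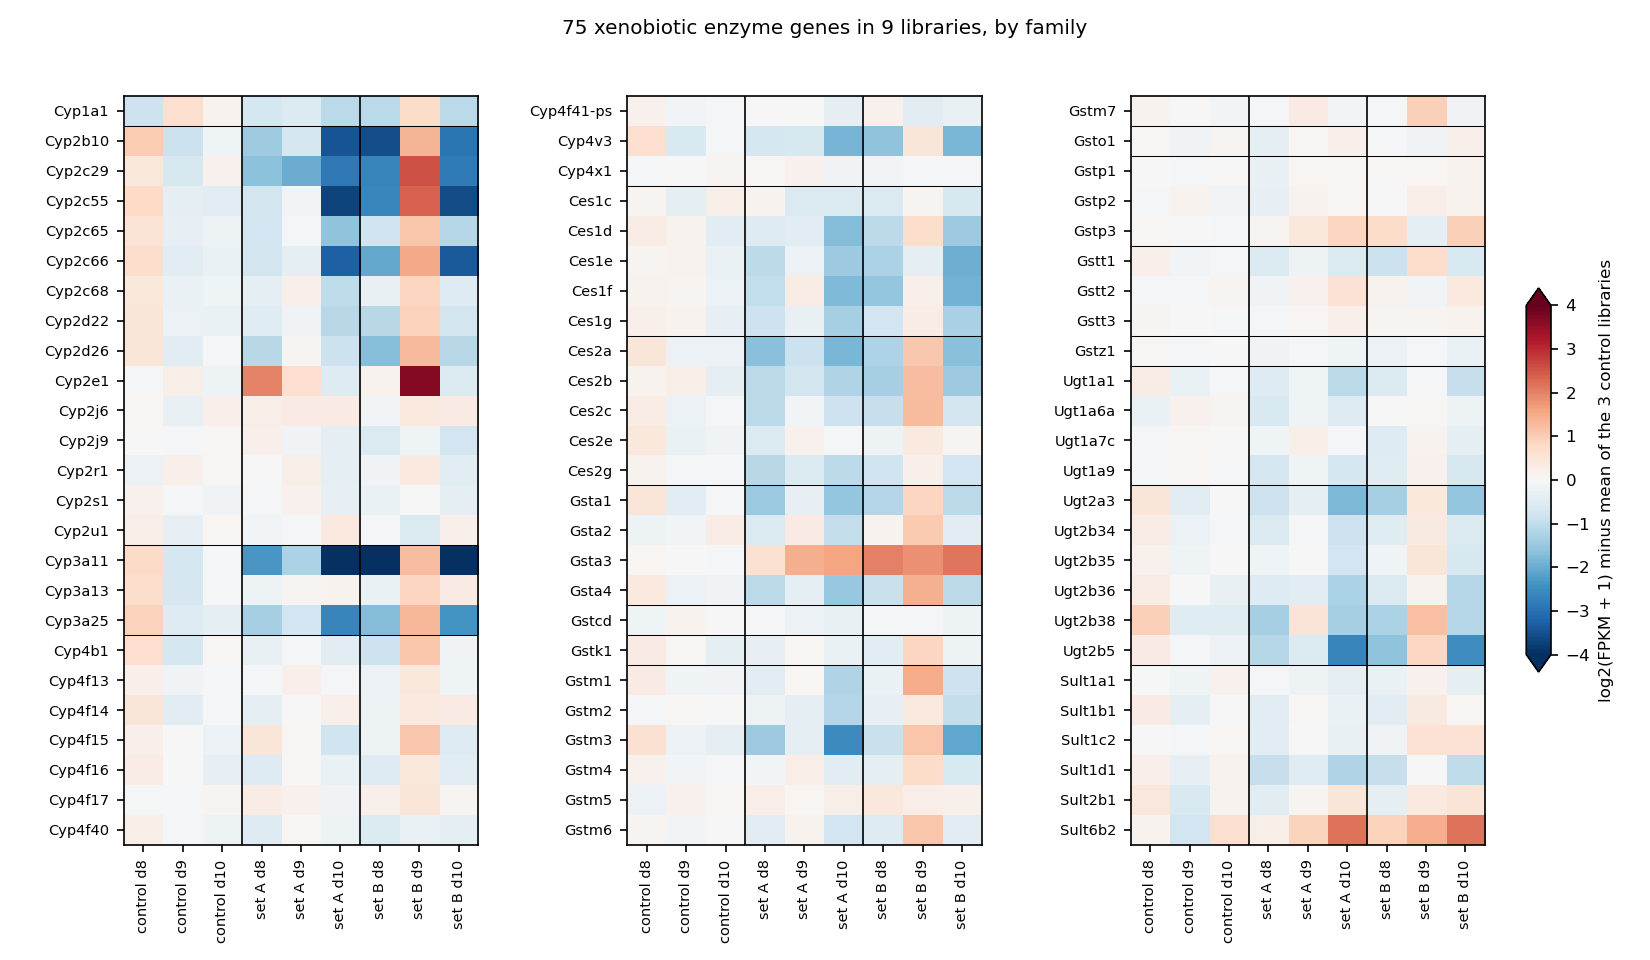
Log2(FPKM + 1) of each of the 75 members minus the mean of the 3 controls, in 9 libraries, arranged by family; blue is lower, red is higher, and the colours are capped at 4 in each direction. The day-10 columns of both mutant sets are mostly blue, set B day 9 is mostly red, and Gsta3 is red in all 6 mutant columns.

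The lowest value of a member lay in either day-10 mutant library for 43 of 75 (57.3%), against 23.2% of all genes tested. There, 17 members were under 1 FPKM in both, 9 of which were at or above 1 in every control. The same counts were not made over all genes. A gene at 1 FPKM in the 3 controls is a member by the level rule alone, so these counts are a description. Relative to the control mean, the mean of both day-10 mutants was 107-fold lower for Cyp3a11 and 50.5-fold for Cyp2c55 (17.1 to 0.339 FPKM). It was 18.2-fold lower for Cyp2c66, 12.7-fold for Cyp2b10 and 11.7-fold for Ugt2b5. Cyp1a1, Cyp2c29 and Ugt2b38 had day-10 mutant means of 0, 0.017 and 0.065 FPKM, too low for a fold. These genes were singled out by their values, and 1 library a set gives no test. Cyp2c66 is 96.4% identical to Cyp2c65 and Ugt2b5 95.5% to Ugt2b38, so their single values are uncertain. In the same 2 libraries the summed level of 11 T cell markers was 32.7 and 30.2 FPKM, against 94.3 to 150 in the controls and 86.1 to 123 in the other mutants, and the tuft cell list was at 10.1 and 12 against 31.8 to 66.3 in control, 17.9 in set B day 8 and 30.4 to 49.2 in the remaining mutants. Their part in the low member values was not tested. A common slope over the 3 days passed for 0 of 12097 genes in limma, and at an unadjusted p under 0.05 it was seen for 2 of 75 members (2.67%), Sult6b2 and Gstt2, and 3.22% of all genes.

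For each set alone, 0 of 75 members passed in set A against control (0.215% of all genes), with 4 (5.33%) at an unadjusted p under 0.05 against 16.7% of all genes, and 1, Gsta3, in set B (0.628%), with 7 (9.33%) at an unadjusted p under 0.05 against 16.5%. Without set B day 9 in the shared fit, 1 member passed in set A, Ces2g, against 1.03% of all genes, and 5 in set B, Ces2b, Ces2g, Cyp2c29, Gsta3 and Gstt1 (6.67%, against 3.94%). At an unadjusted p under 0.05 there were then 24 members (32%) in set A against 20.2% of all genes, and 35 (46.7%) in set B against 24.1%. The sets share their control libraries. Set B minus set A passed for 0 of 12097 genes in limma, and 3 members (4%) against 3.11% of all genes had an unadjusted p under 0.05. A difference between the sets was therefore not detected for any member, which does not show that they were alike.

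The sums of absorptive enterocyte markers and of the members are given side by side. The 30 enterocyte genes, all detected, summed to 15200, 7896 and 10800 FPKM in the controls, 6806, 10770 and 10030 in the set A libraries and 7121, 16700 and 10780 in those of set B, on days 8, 9 and 10. The 75 members summed to 6013, 4365 and 4819 in the controls, 3449, 4891 and 4080 in the set A libraries and 3910, 7407 and 4316 in those of set B, 0.535% to 1.19% of each library's total. Both sums were highest in set B day 9 and lowest in set A day 8. In the enterocyte list 0 genes passed in limma with all libraries, and 3 had an unadjusted p under 0.05 (21% of all genes did). Without set B day 9, 3 passed as lower, where 3.61% of all genes did. Lactase (Lct), among these 3, was at 48.1 to 138 FPKM in control, 2.58 to 21.1 in the mutants other than set B day 9, and 98.1 there. On day 10 the enterocyte sum was within the control range in both sets. The member sums of 4080 and 4316 lay below every control, the latter just under the lowest, 4365. Cyp3a11 was at 0.953 and 1.01 FPKM. A sum is weighted toward its most abundant genes. By gene, 18 of the 30 enterocyte differences were negative with all libraries and 19 without set B day 9. Their medians were −0.19 and −0.22, against −0.21 and −0.37 for the members. The part of enterocyte number in the member values was not tested.

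**Figure D4:**
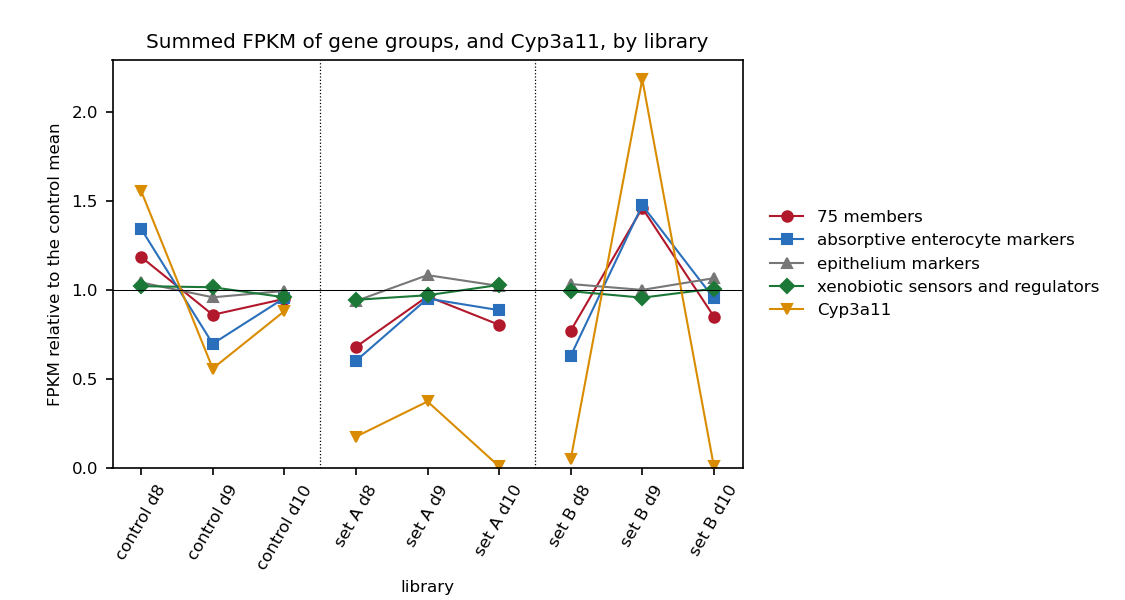
Summed FPKM of the 75 members, 30 enterocyte markers, 5 epithelium markers and 37 xenobiotic sensors and regulators, and FPKM of Cyp3a11, each divided by its own control mean, in the 9 libraries; lines join the days within a group. The member and enterocyte sums peak in set B day 9, the sensor and epithelium sums stay near 1, and Cyp3a11 is near 0 in set B day 8 and both day-10 mutants. A sum near 1 does not show that its single genes were unchanged.

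Paneth cell markers also differed between the groups, with 8 of 15 lower in limma with all libraries, against 0.645% of all genes. Their sums were 70580 to 125800 FPKM in control and 21870 to 52190 in the mutants. Dissociation stress genes summed to 370.4 to 397.5 FPKM in control and 456.6 to 518.1 in the mutants. In limma with all libraries 2 of 12 tested passed as higher, Junb and Ier3, against 0.513% of all genes. Macrophage markers summed to 16.6 to 22.6 FPKM in control and 25.1 to 36.4 in the mutants, with 0 of 4 tested passing and 1 at an unadjusted p under 0.05. The part of these 3 lists in the member values was not tested either. Of the crypt base stem cell markers 1 of 9 tested passed, Igfbp4, which rose by 1.75 ± 0.23, limma adjusted p 0.01995. The list as a whole did not rise with it. Of the 9, 3 had negative differences with all libraries and 5 without set B day 9. Its sum was 1242 to 1419 FPKM in control, 834 to 1414 in the mutants other than set B day 9, and 1750 in that library.

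The RNA levels of PXR, CAR, NRF2 and AHR, which are known to control these enzymes, varied over narrower ranges than that of Cyp3a11. Their activity was not measured. PXR (Nr1i2) was at 39.2, 32.6 and 34.4 FPKM in control and 37.1 to 49.0 in the mutants, with a difference of 0.29 ± 0.10 and a limma adjusted p of 0.161. CAR (Nr1i3) was at 18.4 to 25.1 and 19.7 to 32.9, and NRF2 (Nfe2l2) at 116 to 134 and 115 to 131, both overlapping. AHR (Ahr) was at 5.66, 5.15 and 5.17 in control and 3.80 to 4.46 in the mutants, below every control in all 6. The difference of −0.28 ± 0.07 had an adjusted p of 0.0796 with all libraries and passed without set B day 9, at −0.29 ± 0.07 and 0.0461. Of the 36 sensors and regulators tested, 1 passed with all libraries: the oestrogen receptor Esr1 rose by 2.85 ± 0.30, from 0.085 ± 0.098 to 7.29 ± 3.27 FPKM, adjusted p 0.0101 by limma. Reads of the gene itself and of an introduced sequence that shares its bases cannot be told apart in a gene-level value. Without set B day 9, 4 of the 36 passed as higher and 3 as lower in limma, against 4.6% and 3.61% of all genes. The bile acid receptor Nr1h4 was at 16.7 to 19.3 FPKM in control and 19.4 to 38.4 in the mutants, and passed as higher without set B day 9 at 0.80 ± 0.09, adjusted p 0.0076.

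Of 32 other phase 1 enzymes tested, 1 passed with all libraries. Akr1b8, an aldehyde-reducing enzyme, was at 8.56, 6.29 and 5.51 FPKM in control, while set A had 18.5, 30.8 and 22.7 and set B 37.9, 29.5 and 29.1, and rose by 1.89 ± 0.18 with a limma adjusted p of 0.0065. Its groups did not overlap, and set B day 9 lay with the other mutants. Without set B day 9, Akr1b8 and Akr1b3 passed as higher and 6 genes as lower: the alcohol dehydrogenase Adh1, the flavin mono-oxygenase Fmo5, the monoamine oxidase Maob, the epoxide hydrolases Ephx1 and Ephx2, and Akr1c14. Over all genes 4.6% passed as higher and 3.61% as lower in that fit. With all libraries 0 genes of this list passed as lower. Adh1 was at 348 to 409 FPKM in control and 111 to 298 in the 5 mutant libraries, a difference of −1.26 ± 0.24.

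Of 20 other conjugation genes tested, 2 passed as lower with all libraries, Papss1, which makes the sulfate donor PAPS (−0.33 ± 0.06, adjusted p 0.0495), and the acyl-CoA synthetase Acsm3 (−0.42 ± 0.06, adjusted p 0.0282), both by limma. Papss1 was at 30.5 to 33.4 FPKM in control and 23.1 to 28.6 in the mutants, with no overlap. Over all genes 0.645% were called lower with all libraries. The list as a whole leaned the other way, with 5 of 20 differences negative and a median of 0.14. Without set B day 9, 3 of its genes passed as higher and 2 as lower in limma, against 4.6% and 3.61% of all genes. Its sum was 1564 to 1774 FPKM in control and 1694 to 2291 in the mutants. Of 19 transporters tested, 0 passed in limma with all libraries and 4 had an unadjusted p under 0.05, where 21% of all genes did. Without set B day 9, the efflux pump Abcc4 passed as higher, at 0.659 to 0.727 FPKM in control and 1.15 to 3.38 in the mutants, and the extruder Slc47a1 as lower.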

How the data were processed

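Poly(A) RNA of mouse crypt epithelium was sequenced in 9 paired-end libraries, per the labels' protocols. The values that the authors deposited were read as FPKM from the values themselves: they are not whole, shrink with transcript length, and have the same median ratio to the geometric mean (1.00276) in every library over 15138 genes. Kallisto 0.46.1, DESeq2 1.40.1 and mm9 are listed, per the submitters' processing notes, with no roles given; counting by strand is not given in the sources used here. All groups are the 3 libraries of control, set A and set B.

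From the deposited FPKM, log2(FPKM + 1) was fitted with limma 3.58.1 (R 4.3.3, trend and robust options) on the 12097 genes that reached 1 FPKM in 3 or more libraries, with group means and a common spread. A difference passed at a Benjamini-Hochberg adjusted p of 0.05 over all 12097 genes. In 10 simulations with 200 changed genes, the comparison of both sets with control found 89.9% of those shifted by a log2 difference of 1 and 97.7% at a difference of 2, with 5.42% of calls false. The changed genes had a mean log2(FPKM + 1) over 2, and the noise was normal, independent and set by the median SD of the 3 groups. That noise leaves out the wide spread that set B day 9 gave many members. The shares found therefore do not carry over to those members. Transcripts were compared with blastn 2.17.0 and promoters scanned in Python 3.11.15; coordinates of GRCm38.p6 were not converted to mm9.

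The members and gene lists were chosen with earlier results of these data known. Named members were Cyp3a11, the 3 highest by mean FPKM in each family, every member that passed in any contrast with all libraries or without set B day 9, those whose groups did not overlap, and the edges of the level rule; 47 members met it. Alternatives were another pseudocount, other filters, equal FPKM totals, a day block, fits on the compared groups, and fits with each library left out. Leaving out the day-10 libraries, and the block without set B day 9, were added after seeing the data.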

Additional observations from a re-analysis of the deposited data

Results flagged for a closer look

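On the log2 scale, 1 of the 6 mutant libraries lay far from the other 5 for 5 of the 47 named members by Dixon's test. This test takes the gap to the nearest library as a share of the whole range. It was run on the named members only, which were chosen partly by their values, so a share over all genes is not given. Ces2b and Cyp2c29 met the naming rule only by passing without set B day 9, so a flag for that library was largely built in. The test flags about 1 in 20 groups of unselected values by chance. That rate cannot be set against members picked by their values that share a library. For Cyp2c29, set B day 9 (41.8 FPKM) was above the rest by 0.772 of the range, for Ces2b (7.92 FPKM) by 0.732, for Cyp1a1 (2.55 FPKM) by 0.706 and for Ces2a (132 FPKM) by 0.66. For Gstp1, set A day 8 (841 FPKM) was below the other mutant libraries by 0.806 of the range. The summed enterocyte list was highest in set B day 9 at 16700 FPKM, next to control day 8 at 15200, and lowest in set A day 8 at 6806 FPKM, next to set B day 8 at 7121, and the part of this in the member values was not tested.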

How the results depend on the processing

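For Cyp3a11 and the 9 members that passed in either fit, no difference of both sets from control reversed in any setting run. With all libraries 1 member passed for both sets against control, 0 for set A and 1 for set B. Leaving out 1 library gave 0 to 9 members for both sets, 0 to 1 for set A and 0 to 5 for set B, and over all genes 17 to 994, 3 to 124 and 18 to 477; the highest count came without set B day 9 in each case but the members of set A, where leaving out set A day 8 also gave 1. For set B minus set A these fits called 0 to 1 genes, and a pseudocount of 0.1 called 2. With the low filter dropped, 80 genes passed for both sets, and with the compared groups alone 33 passed for set B. Without the day-10 libraries, 0 members passed for both sets and 0 for set B, and 7, 5 and 8 genes for both sets, set A and set B.

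The replicate number is the day, and same-day deviations correlated between −0.24 and 0.07 for control and either set, and at −0.02, 0.40 and 0.62 between the sets on days 8, 9 and 10. Not every pair was over 0.1, so the day was not taken as pairing the libraries. With the day as a replicate block, 1, 0 and 1 members and 97, 16 and 63 genes passed for both sets, set A and set B, and 0 genes for set B minus set A. In the block without set B day 9, 4 of the 9 members lost the call, Ces2a, Gstp3, Gstt1 and Sult1d1, with limma adjusted p-values of 0.0614, 0.0677, 0.0743 and 0.0792. Ces1e, Ces2b, Ces2g, Cyp2c29 and Gsta3 kept it. This block gave 8 members and 464 genes for both sets, so members outside the 9 passed as well. It also gave 61 genes for set A, and 2 members and 133 genes for set B. No block could be fitted beside the slope, and the compared groups alone add nothing for both sets. Equal FPKM totals gave 133 higher and 36 lower genes for both sets, against 62 and 78 as deposited, and moved the median of all genes by 0.04 on the log2 scale.

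Low members are limited by depth, since 1 FPKM is about 16.7 to 19.1 fragments per kilobase. Intervals from counts were not given, since counts were not used here. With 3 libraries a group, 1 a day, and 1 library of another sex pattern, day, sex and library cannot be told apart.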
